A study of Homo sapiens with 4 samples.

Results

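The genes described here are 10 genes of cellular oxygen sensing and proline hydroxylation, picked by name from the 64252 Ensembl gene IDs of the count table. HIF1A and ARNT encode the subunits of hypoxia-inducible factor 1 (HIF1), EGLN1, EGLN2 and EGLN3 the prolyl hydroxylases that mark HIF alpha, HIF1AN the asparagine hydroxylase of HIF alpha, and VHL the protein that reads the prolyl mark. P4HA1 and P4HA2 encode catalytic subunits of collagen prolyl 4-hydroxylase, and ANKRD37 is a HIF target gene of little known function. The libraries hold RNA of J.gamma1 cells, which descend from the Jurkat line of human T-cell acute lymphoblastic leukaemia and are known to be deficient in the phospholipase PLCG1. Cultures received either FB23-2 at 10 µM or DMSO vehicle below 0.1% and were harvested at 48 h. FB23-2 inhibits FTO, a demethylase of RNA. Each group held 2 independent biological replicates of this single line, and the series title names T-ALL, FTO, m6A and MYC as its subject. No oxygen level is given in the labels, and hydroxylation and protein amounts were not measured.

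When oxygen is plentiful, the EGLN enzymes hydroxylate prolines of HIF alpha, VHL binds the hydroxylated protein, and a ubiquitin ligase built around VHL sends it for degradation. When oxygen falls, HIF alpha escapes, pairs with ARNT and switches on genes of glycolysis, iron uptake and blood vessel growth, with EGLN3, and in many cells EGLN1, among its own targets. HIF1AN adds a further brake by hydroxylating an asparagine that blocks binding of the coactivators EP300 and CREBBP. HIF activity is thus set mainly at the level of HIF alpha protein, which RNA counts do not show. The EGLN enzymes, HIF1AN, the collagen prolyl 4-hydroxylases and FTO all belong to the large class of enzymes that need iron, oxygen and 2-oxoglutarate.

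HIF binds DNA at the hypoxia response element, whose core is ACGTG or GCGTG. Windows of 300 bases, from 250 before to 50 after a gene start, were available from RefSeq (GRCh38.p14, the coordinates of hg38) for 9 of the 10 genes. Both strands were searched. ACGTG was found in 4 of these 9 genes, against 24.9% of 27305 genes with such a window, and GCGTG in 1 of 9, against 40.6%. These shares cover genes whether expressed or not, while all 9 were expressed enough to be tested. Of the genes tested below that have a window, 3736 held ACGTG and 7966 did not, a larger share than 24.9%. The runs of 30 bases around these letters are shown because they hold the matches. Each reads 5′ to 3′ on the strand of the gene, with the motif in capitals, and CACGT is ACGTG on the other strand. ANKRD37 lies at chr4:185396676-185396705 on the plus strand, EGLN2 at chr19:40799130-40799159 on the plus strand, EGLN1 at chr1:231422288-231422317 on the minus strand, P4HA1 at chr10:73096936-73096965 on the minus strand and HIF1A at chr14:61695296-61695325 on the plus strand.
ANKRD37: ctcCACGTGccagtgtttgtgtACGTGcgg
EGLN2: gcggggcgcggtCACGTGcccaccgggcga
EGLN1: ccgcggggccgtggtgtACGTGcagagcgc
P4HA1: gtgtgatcgagctCACGTagcgagggctgc
HIF1A: ttggctgagagcgGCGTGggctggggtggg
ANKRD37 carries a pair of separate matches within this run. The first of them, and the match of EGLN2, have the palindrome CACGTG, the E-box core that MYC and other basic helix-loop-helix factors are also known to bind, and which reads as ACGTG on both strands. CACGTG was found in 8.77% of genes with a window. The windows of ARNT, EGLN3, HIF1AN and P4HA2 held neither ACGTG nor GCGTG, and no window was used here for VHL. A match is a run of letters and no evidence of binding.

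The library totals were 24615359 to 37804516 counts, and 3 counts correspond to 0.0785 to 0.125 CPM, the count scaled to library size after TMM normalization. All 12 T-cell markers checked were detected, with a summed level of 1550 to 1629 CPM with FB23-2 and 2107 to 2114 CPM in control. The sums were 42.0 to 48.4 CPM for 4 B-cell markers, most of it CD79A, and 1.64 to 2.43 CPM for 4 myeloid markers. All 10 genes passed the filter on low counts and entered the comparison of 18817 genes. In that comparison 42.1% of genes passed an edgeR adjusted p of 0.05 (Benjamini-Hochberg over all tested genes), 21.8% higher and 20.3% lower with FB23-2. Of the 10 genes, 7 passed, 4 higher and 3 lower, and the same 7 had groups that did not overlap, which held for 70.8% of all tested genes. Most of them are well expressed: among genes at a mean of 10 CPM or more, 58.8% were called, and 6 of the 8 members at that level were. The median absolute log2 fold change of the 10 was 0.50, against 0.34 over all tested genes, a comparison not matched on abundance. The 10 genes were chosen with earlier results of these data known. These comparisons therefore cannot show that the set moved more than other genes. Levels are per bulk library, so a change in the mix of cell states and a change in RNA per cell cannot be told apart.

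**Figure D1:**
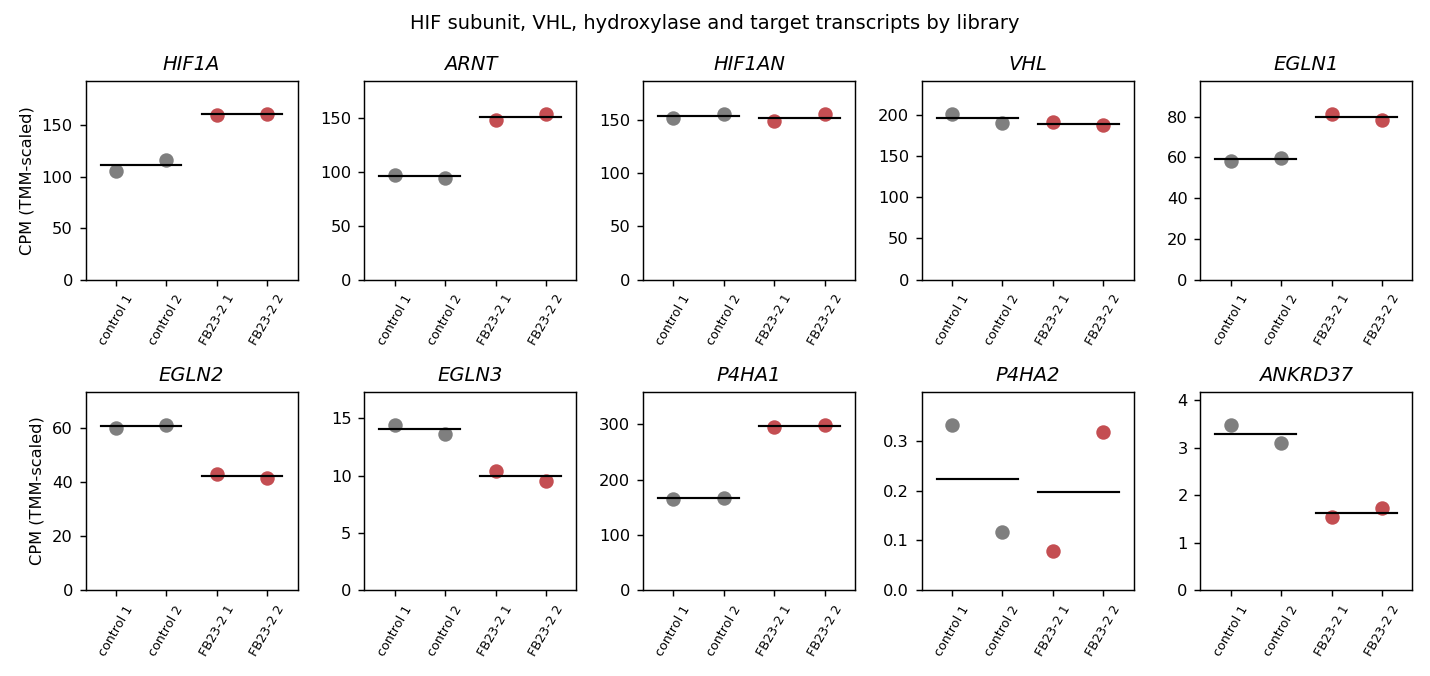
TMM-scaled CPM (vertical axis, from 0) of each of the 10 genes in the 4 libraries (horizontal axis); points are libraries, control in grey and FB23-2 in red, and black lines are group means. HIF1A, ARNT, EGLN1 and P4HA1 sit higher in both FB23-2 libraries, EGLN2, EGLN3 and ANKRD37 lower, and HIF1AN, VHL and P4HA2 overlap.

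Both HIF1 subunit transcripts rose with FB23-2. HIF1A, the oxygen-regulated alpha subunit (ENSG00000100644, chromosome 14, 61695513 to 61748259, plus strand), stood at 160.1 and 160.5 CPM with FB23-2 and at 105 and 117 CPM in control. The FB23-2 libraries were close to each other and above both control libraries, which differed more. The means were 160.3 ± 0.315 against 110.8 ± 8.14 CPM (SD, n = 2 each), a 1.44-fold rise with a log2 fold change of 0.53 ± 0.06 (SE, edgeR adjusted p = 6.53e-05). ARNT, the constitutive beta subunit (ENSG00000143437, chromosome 1, 150809705 to 150876768, minus strand), stood at 148 and 153 CPM with FB23-2 and at 97.3 and 93.9 CPM in control. It rose 1.57-fold, by 0.65 ± 0.05 on the log2 scale (edgeR adjusted p = 8.25e-06). The rise of HIF1A was smaller than that of ARNT by 0.125 ± 0.073 (log2, SE from both fits), a difference that was not tested. HIF1A made up 57.7% and 61.1% of the summed level per length of the pair in control, and 57.8% and 57.0% with FB23-2. Antisense and like-named loci at HIF1A were nearly silent, with 0 counts of HIF1A-AS1 and at most 5 counts of HIF1A-AS3 in any library.

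Among the other HIF subunits, EPAS1, which encodes HIF2 alpha, rose more than either member. It had 477 and 370 counts with FB23-2 and 80 and 100 in control, or 11.6 ± 1.29 against 3.11 ± 0.294 CPM (SD, n = 2 each). The fitted rise was 1.91 ± 0.18 on the log2 scale (edgeR adjusted p = 3.5e-05), and both FB23-2 libraries were above both control libraries. EPAS1 remained the minor alpha subunit on a scale of CPM per kilobase of annotated exon, at 1.58 ± 0.176 with FB23-2 against 31.1 ± 0.0611 for HIF1A. HIF3A had 0 counts in all 4 libraries, which allows up to 3 counts in each, and ARNT2, a second beta subunit, had 4 counts in 1 control library and 0 in the others. Neither was tested.

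The prolyl hydroxylases split. EGLN1, known as PHD2 and the main HIF hydroxylase in most cells (ENSG00000135766, chromosome 1, 231363751 to 231425044, minus strand), stood at 81.3 and 78.5 CPM with FB23-2 and at 58.3 and 59.98 CPM in control. Both treated libraries were above both control libraries. It rose 1.35-fold, with a log2 fold change of 0.43 ± 0.06 (edgeR adjusted p = 2.35e-04). EGLN3, known as PHD3 (ENSG00000129521, chromosome 14, 33924231 to 34462774, minus strand), was the rarest of the 3, at 10.4 and 9.57 CPM with FB23-2 and 14.4 and 13.7 CPM in control. The groups did not overlap, and it fell by 0.49 ± 0.12 on the log2 scale (edgeR adjusted p = 0.00956). Its call ended on leaving out FB23-2 replicate 2 (log2 fold change -0.427) or control replicate 1 (-0.466). All settings together spanned adjusted p values of 0.00625 to 1 for EGLN3. Here and below, the settings include a test against a 1.5-fold change, a stricter question, which gave this upper end. HIF1A, ARNT and EGLN1 did not pass that test either. EGLN1 and EGLN3, both known as HIF-inducible, had log2 fold changes of opposite sign, 0.919 ± 0.132 apart. This difference was not tested.

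EGLN2, known as PHD1 (ENSG00000269858, chromosome 19, 40798996 to 40808433, plus strand), stood at 43.0 and 41.7 CPM with FB23-2 and at 59.9 and 61.1 CPM in control. In the table as deposited it fell by 0.52 ± 0.06 on the log2 scale (edgeR adjusted p = 1.47e-04). A read-through gene, RAB4B-EGLN2, which joins the upstream gene RAB4B to EGLN2 on the same strand, shares 30.6% of the exon bases of EGLN2. Its counts moved the other way, with 605 and 591 with FB23-2 against 11 and 189 in control, and the control libraries differed widely from each other. Of the summed counts of the 2 loci, the read-through took 26.9% and 29.01% with FB23-2 and 0.756% and 8.24% in control. With both summed, an alternative chosen after seeing the data, the level was 58.8 ± 0.0799 CPM with FB23-2 and 63.5 ± 4.42 CPM in control (SD, n = 2 each). The log2 fold change was then -0.12 ± 0.06 and no longer passed (edgeR adjusted p = 0.184). The read-through gene on its own had a log2 fold change of 2.28 ± 0.74 (edgeR adjusted p = 0.126). RAB4B itself, a small GTPase gene, was higher at 35.4 against 25.8 CPM (log2 fold change 0.46 ± 0.09, edgeR adjusted p = 0.00292). How the deposited counts divided reads between these loci was not tested, so the fall of EGLN2 is uncertain.

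Per kilobase of annotated exon, the 3 EGLN transcripts together stood at 19.1 and 18.4 CPM with FB23-2 and 19.1 and 19.4 CPM in control. As counted without the read-through, the shares within that sum were as follows. EGLN1 took 58.5% and 58.6% with FB23-2 and 42.0% and 42.5% in control. EGLN2 took 34.2% and 34.4% with FB23-2 and 47.7% and 47.9% in control. EGLN3 took 7.38% and 7.05%, against 10.3% and 9.56%. With the read-through added to EGLN2, over the exon length of EGLN2 and chosen after seeing the data, the sum was 21.6 and 21.0 CPM per kilobase with FB23-2 and 19.2 and 20.2 in control. EGLN2 then took 41.5% and 42.4% with FB23-2 and 47.9% and 50.05% in control, and EGLN1 51.9% and 51.4% against 41.9% and 40.8%. Under both ways of counting, EGLN2 led the family in both control libraries and EGLN1 in both FB23-2 libraries, while the near equality of the sums held only without the read-through. The lengths are of all annotated exons of a gene, which can exceed the transcripts made in these cells, so levels between genes are approximate.

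**Figure D2:**
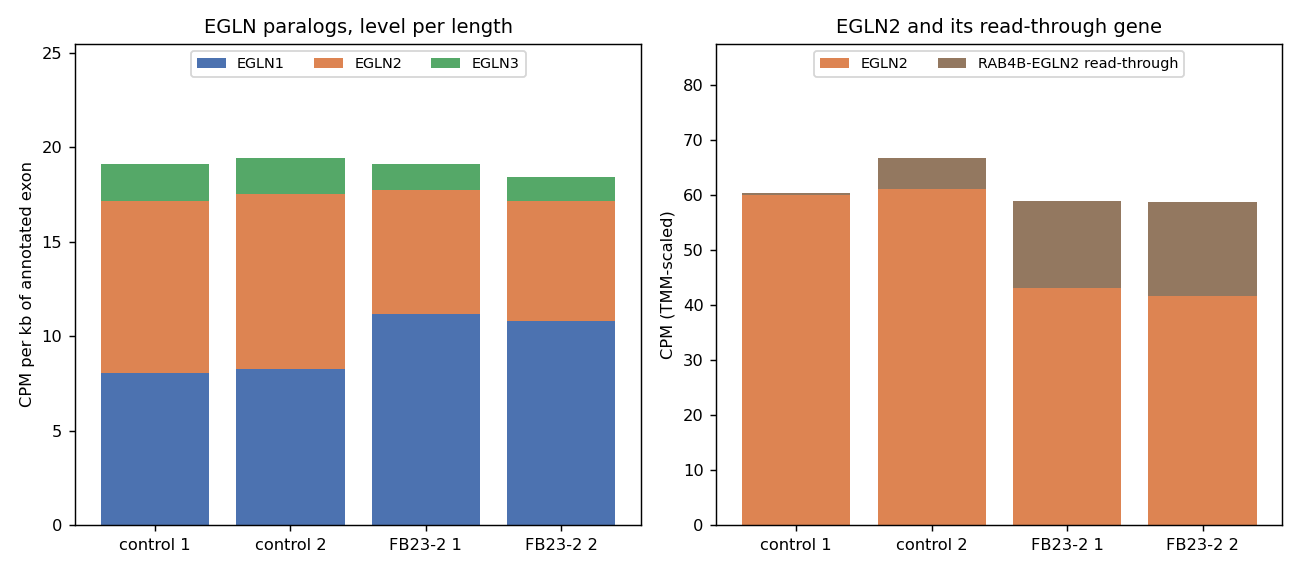
Left: level per kilobase of annotated exon (CPM per kb, from 0) of EGLN1, EGLN2 and EGLN3, stacked for each library; right: TMM-scaled CPM of EGLN2 with the read-through gene RAB4B-EGLN2 stacked on it. The EGLN1 segment is larger in both FB23-2 libraries, and the EGLN2 segment is smaller there while the read-through segment is larger, with summed heights of 58.7 and 58.8 CPM against 60.4 and 66.6 CPM in control.

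HIF1AN and VHL did not pass the test. HIF1AN, also called FIH (ENSG00000166135, chromosome 10, 100529072 to 100559998, plus strand), stood at 149 and 155 CPM with FB23-2 and at 152 and 155 CPM in control. The groups overlapped, for a log2 fold change of -0.02 ± 0.04 (edgeR adjusted p = 0.814). VHL (ENSG00000134086, chromosome 3, 10141008 to 10152220, plus strand) stood at 191 and 188 CPM with FB23-2 and at 201 and 190.2 CPM in control. Those values also overlapped, for a log2 fold change of -0.04 ± 0.04 (edgeR adjusted p = 0.463). HIF1AN shares 325 exon bases with NDUFB8, a gene of respiratory complex I on the opposite strand (-0.37 ± 0.09, edgeR adjusted p = 0.0127), and 31 with the unnamed gene ENSG00000255339 (-1.17 ± 0.47, edgeR adjusted p = 0.188), or 2.33% and 0.222% of its exon bases. The retrocopy VHLL had 0 counts in every library. With standard errors of 0.04, both were among the most precisely measured of the 10 genes.

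Most partners of VHL in its ubiquitin ligase did not pass either. Of 5 tested, 1 was lower and 0 higher. Of all tested genes 42.1% were called, and 58.8% of those at a mean of 10 CPM or more. A list of 5 genes is too small for a comparison with either share. The adaptors ELOB (-0.01 ± 0.06) and ELOC (0.02 ± 0.08), the RING protein RBX1 (0.04 ± 0.05) and the ubiquitin-like activator NEDD8 (-0.17 ± 0.07) did not pass. The scaffold CUL2 was lower, at 72.3 ± 0.862 against 82.6 ± 5.61 CPM (SD, n = 2 each), with a log2 fold change of -0.19 ± 0.06 (edgeR adjusted p = 0.0329). The adjusted p of CUL2 became 0.0957 on leaving out FB23-2 replicate 1, 0.0892 on leaving out FB23-2 replicate 2 and 0.178 on leaving out control replicate 1, it was 0.0904 with library size scaling and 0.0767 with no filter, and all settings spanned 0.0132 to 1. NEDD8 did pass on leaving out FB23-2 replicate 1 (0.0375), with upper quartile factors (0.0361) and with a replicate block (0.0173), the lowest of its settings, whose highest was 1.

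P4HA1 showed the strongest rise of the set. This gene encodes the more widely used catalytic subunit of the enzyme that hydroxylates prolines of collagen in the endoplasmic reticulum (ENSG00000122884, chromosome 10, 73007217 to 73096974, minus strand), and it is a known HIF target. It stood at 296 and 299 CPM with FB23-2 and at 165 and 167 CPM in control, so that libraries of a group lay close together and the groups far apart. The rise was 1.79-fold, 0.84 ± 0.04 on the log2 scale (edgeR adjusted p = 9.17e-07), the 1268th highest of 18817 tested genes. It was the one member that also passed a test against a 1.5-fold change (edgeR adjusted p = 5.74e-04). P4HA2, its paralog (ENSG00000072682, chromosome 5, 132191838 to 132295315, minus strand), was close to the limit of detection. It had 3 and 11 counts with FB23-2 and 8 and 4 in control, the groups overlapped, and a log2 fold change of -0.09 ± 0.87 (edgeR adjusted p = 0.948) leaves its direction unknown at this depth. P4HA1 therefore made up at least 99.9% of the summed P4HA1 and P4HA2 level per length in every library. P4HB, the protein disulfide isomerase that is the partner subunit of this enzyme, did not pass (366 ± 13.7 against 386 ± 0.588 CPM, log2 fold change -0.08 ± 0.04, edgeR adjusted p = 0.168), except with upper quartile factors (0.0424). Per kilobase, P4HA1 stood below P4HB in control (53.6 ± 0.457 against 72.7 ± 0.111 CPM) and above it with FB23-2 (96.1 ± 0.784 against 69.0 ± 2.59 CPM). This crossing rests on the lengths of all annotated exons, 3.093 kb for P4HA1 and 5.303 kb for P4HB. Such lengths can exceed the transcripts made, so the crossing is uncertain. In CPM, P4HA1 stayed below P4HB in both groups (165.9 against 386 in control, 297.2 against 366 with FB23-2).

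ANKRD37, a small ankyrin-repeat gene commonly used as a marker of HIF activity (ENSG00000186352, chromosome 4, 185396021 to 185400628, plus strand), had the largest fall. It had 59 and 60 counts with FB23-2 and 84 and 107 in control, or 1.54 and 1.73 against 3.49 and 3.11 CPM. The groups did not overlap, and the level was 2.00-fold higher in control, with a log2 fold change of -0.999 ± 0.251 (edgeR adjusted p = 0.0103). Leaving out FB23-2 replicate 1 moved its adjusted p to 0.0573 and leaving out control replicate 1 to 0.0563, and all settings spanned 0.00754 to 0.214. ANKRD37 shares 35.2% of its exon bases with UFSP2 on the opposite strand, a gene whose mean level was 36.8 CPM in treated and 38.4 CPM in control cells (log2 fold change -0.05 ± 0.08, edgeR adjusted p = 0.625). No source used here gives the strand setting of the counting, so reads from these genes may not have been told apart. Of the 4 genes with ACGTG near their start, P4HA1 and EGLN1 rose, and ANKRD37 and, as counted, EGLN2 fell. A link between these letters and the changes was not tested.

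**Figure D3:**
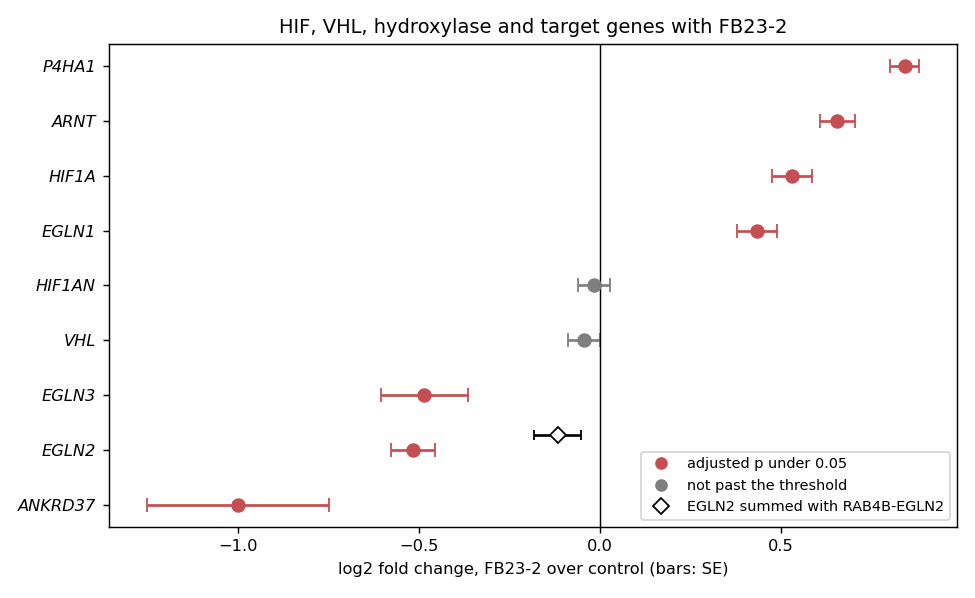
Log2 fold change of FB23-2 over control (horizontal axis, points) with its standard error (bars) for 9 of the 10 genes, red where the edgeR adjusted p was under 0.05 and grey otherwise; P4HA2 is left out because its standard error of 0.87 spans the plot. The open diamond is EGLN2 summed with its read-through gene, at -0.12 in place of -0.52.

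Ordered by CPM per kilobase in control, the 10 genes ran from P4HA1 (53.6) through VHL (46.4), HIF1A (21.5), ARNT (14.7), HIF1AN (11.01), EGLN2 (9.20), EGLN1 (8.14), EGLN3 (1.91) and ANKRD37 (1.28) to P4HA2 (0.0264). Each neighbour in this order was separated from the next in both control libraries, which speaks to replicate spread and not to the lengths used. The order rests on the lengths of all annotated exons, 13.95 kb for HIF1AN, and is approximate. In CPM, HIF1AN (153.6) was above HIF1A (110.8) and ARNT (95.58) in control. With FB23-2 the order was the same except that EGLN1 (11.2 and 10.8) moved ahead of HIF1AN (10.7 and 11.1) and EGLN2 (6.54 and 6.34), and EGLN1 and HIF1AN were not separated there.

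Known HIF target genes moved in both directions. Of 36 tested targets outside glycolysis, 15 were higher and 10 lower, for a median log2 fold change of 0.19. Over all tested genes 21.8% were higher and 20.3% lower, with a median of 0.00. Among genes at a mean of 10 CPM or more, 58.8% were called in either direction. The highest were ANGPTL4, a secreted regulator of lipoprotein lipase (1.60 ± 0.37), STC2, a secreted glycoprotein (1.01 ± 0.09), CCNG2, a cyclin linked to growth arrest (0.94 ± 0.05), and RORA, a nuclear receptor (0.93 ± 0.08). ANGPTL4 was low, at 2.02 ± 0.328 against 0.691 ± 0.197 CPM (SD, n = 2 each), and leaving out control replicate 2 ended its call (edgeR adjusted p = 0.0965, the highest of settings that began at 0.00512). The lowest were CA9, a carbonic anhydrase and a classic HIF1 target (-1.96 ± 0.22), the cytokine gene MIF (-0.94 ± 0.06), GBE1, the glycogen branching enzyme (-0.80 ± 0.06), and JMJD6, itself a 2-oxoglutarate hydroxylase (-0.64 ± 0.09). CA9 had 55 and 64 counts with FB23-2 and 151 and 222 in control. VEGFA, the vascular growth factor, rose from 32.5 ± 0.868 to 54.0 ± 1.19 CPM (log2 fold change 0.73 ± 0.07).

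Of 20 HIF targets of glucose uptake and glycolysis, 12 were lower and 4 higher, for a median of -0.41. Over all tested genes 20.3% were lower and 21.8% higher, and 58.8% of those at a mean of 10 CPM or more were called in either direction. PGK1, phosphoglycerate kinase (-1.13 ± 0.04), ENO1, enolase (-0.92 ± 0.03), GPI, glucose phosphate isomerase (-0.89 ± 0.05), and TPI1, triosephosphate isomerase (-0.61 ± 0.04), had the lowest values. SLC2A3, a glucose transporter, went from 12.0 ± 1.01 to 34.7 ± 1.69 CPM (1.55 ± 0.10), and HK2, hexokinase (0.55 ± 0.05), SLC16A3, a lactate exporter (0.39 ± 0.08), and ENO2 (0.15 ± 0.04) were also higher. The ENO2 call ended on leaving out FB23-2 replicate 1 (edgeR adjusted p of 0.0902), control replicate 1 (0.152) or, last, control replicate 2 (0.0655), with settings from 0.00279 to 1. Several of these genes are known MYC targets as well, and MYC RNA was 62.5 ± 5.64 CPM with FB23-2 against 367 ± 1.08 CPM in control. The part of MYC in these values was not tested.

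Regulators of HIF outside the hydroxylases had 5 higher and 7 lower of 18 tested, for a median of -0.01. Of all tested genes 42.1% were called, and 58.8% of those at a mean of 10 CPM or more. Some of the 18 lie below that level, so neither share is matched to this list. The chaperones HSP90AB1 (-1.59 ± 0.03) and HSP90AA1 (-1.07 ± 0.03), which bind HIF1 alpha, fell furthest, followed by the helicase subunit MCM7 (-0.83 ± 0.04) and RACK1 (-0.70 ± 0.06), a scaffold that promotes oxygen-independent loss of HIF1 alpha. OS9, an endoplasmic reticulum lectin (0.48 ± 0.04), the ubiquitin adaptor UBXN7 (0.44 ± 0.07), the acetyltransferase coactivator CREBBP (0.38 ± 0.05) and SIAH1, a ubiquitin ligase that acts on EGLN proteins (0.30 ± 0.08), had the highest values. Leaving out FB23-2 replicate 1 gave SIAH1 an edgeR adjusted p of 0.142 and leaving out control replicate 2 one of 0.161, with settings from 0.00717 to 1, and the count of higher genes was 3 on leaving out either library.

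**Figure D4:**
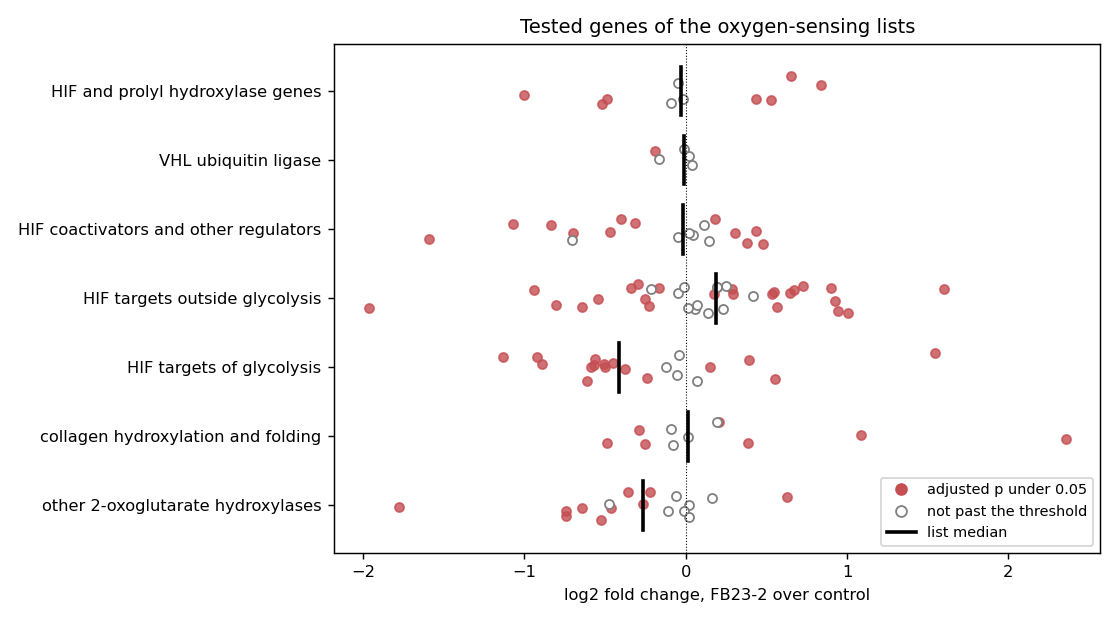
Log2 fold change of FB23-2 over control (horizontal axis) for each tested gene of 7 lists (rows), red where the edgeR adjusted p was under 0.05 and open grey otherwise, with black bars at list medians; vertical scatter within a row has no meaning. The median of the HIF targets of glycolysis lies at -0.41 and that of the other HIF targets at 0.19, and both lists have called genes on each side of 0.

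The other genes of collagen hydroxylation and folding had 4 higher and 3 lower of 11 tested. The shares called were 42.1% of all tested genes and 58.8% of those at a mean of 10 CPM or more, a level that not all of the 11 reached. SERPINH1, the collagen chaperone HSP47, rose from 21.2 ± 0.915 to 44.8 ± 0.133 CPM (1.09 ± 0.08, edgeR adjusted p = 6.8e-06), and P3H1, a prolyl 3-hydroxylase, rose by 0.39 ± 0.05. Its partner CRTAP was higher (0.21 ± 0.06), a call that ended on leaving out FB23-2 replicate 1 (edgeR adjusted p of 0.0757), FB23-2 replicate 2 (0.0628) or, last, control replicate 2 (0.148), with settings from 0.00486 to 1. P4HA3, the remaining catalytic paralog, had 21 and 12 counts with FB23-2 and 2 and 3 in control (2.35 ± 0.74), below the floor of 3 counts in 1 control library. It is among the 4 higher genes, which numbered 3 of 10 tested when at least 100 counts in all were asked for. P4HA3 passed the filter on low counts only through the FB23-2 libraries, where it is high, so its call cannot serve as support for a rise. That call too ended on leaving out FB23-2 replicate 1 (0.138), either control replicate 1 (0.133) or control replicate 2 (0.175), with settings from 0.0239 to 0.175. The galactosyltransferase COLGALT1 (-0.49 ± 0.06), the prolyl isomerase PPIB (-0.29 ± 0.05) and the lysyl hydroxylase PLOD1 (-0.25 ± 0.07) were lower, though PLOD1 missed the threshold on leaving out FB23-2 replicate 2 (0.077) or control replicate 1 (0.0718), with settings from 0.00582 to 1. Leaving out FB23-2 replicate 1, or control replicate 2, left 2 higher genes.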

How the data were processed

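Values are the whole-number counts per Ensembl gene ID that the authors deposited in a single unnormalized table of 4 libraries. The submitters' processing notes list HISAT2 2.2.0, StringTie and hg38. The annotation, the strandedness and the way counts were made from alignments are unstated, or not given in the sources used here. Symbols came from a list of gene names, coordinates and exon lengths from GENCODE release 29. Genes were kept by filterByExpr (minimum count 10), scaled by TMM and compared with the quasi-likelihood test of edgeR 4.0.16 in R 4.3.3, with Benjamini-Hochberg adjustment over 18817 genes. Standard errors (SE) were the absolute log2 fold change divided by the root of F. Chi-square over degrees of freedom was 6.69 and 7.48 for replicates and 74.6 to 82.3 across groups, so no library was a copy. Counting floors cover counting error only. DESeq2 1.42.0 served as an alternative. Members and lists were chosen with earlier results of these data known. Named genes were all members, all other HIF subunits and VHL ligase partners, up to 4 highest and 4 lowest called genes of each other list, and genes whose exons overlap a member. The rule does not cover MYC, RAB4B, CD79A, P4HB, VEGFA, COL1A1, P4HTM and BBOX1, which were picked with their values known.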

Additional observations from a re-analysis of the deposited data

How the results depend on the processing

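Leaving out 1 library at a time kept the 4 higher members at 4, while the lower members ranged from 1 to 3, the count of 1 being without control replicate 1. The lone library left in a group is then assumed to vary like the others. EGLN3 was then -0.43 to -0.57 and ANKRD37 -0.94 to -1.09. A test against a 1.5-fold change left 434 higher and 678 lower genes in all, and 1 higher and 0 lower member. Under it HIF1A (0.53), ARNT (0.65), EGLN1 (0.43), EGLN2 (-0.52), EGLN3 (-0.49) and ANKRD37 (-0.999) did not pass. It left 0 VHL ligase genes lower, 0 HIF regulators higher and 3 lower, 4 other HIF targets higher and 3 lower, 1 glycolysis target higher and 3 lower, 1 collagen hydroxylation gene higher and 0 lower, 0 collagen chains higher and 1 lower, and 0 of the other hydroxylases higher and 1 lower. EGLN2 summed with its read-through gene was -0.12.

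With 1 library left out, the VHL ligase had 0 to 1 genes lower, HIF regulators 3 to 5 higher, collagen hydroxylation 2 to 3 higher, collagen chains 0 to 1 higher and 2 to 3 lower, and the other hydroxylases 5 to 8 lower. VHL ligase genes lower numbered 2 with upper quartile factors, 2 with a replicate block, 0 with library size scaling and 0 with no filter. Collagen chains higher numbered 2 with library size scaling and 0 with no filter. Same-numbered libraries are not stated to share a batch. Their replicate differences correlated at 0.062 over genes, and a replicate block gave 4237 higher and 4031 lower genes and changed no call among the 10 genes.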

Other observations

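Most genes of collagen chains, the substrates of the collagen prolyl hydroxylases, had low counts in these T-lineage cells. Of 16 collagen chain genes, 12 were tested, of which 1 was higher and 4 lower with FB23-2, near the 42.1% called among all tested genes. COL1A2, a chain of type I collagen, had 7 and 0 counts with FB23-2 and 62 and 74 in control (edgeR adjusted p = 2.66e-04). It passed the filter on low counts only through the control libraries, where it is high, so its call was not independent of the filter. COL1A1, the partner chain of COL1A2, had 169 and 155 against 96 and 130 counts and did not pass (log2 fold change 0.20 ± 0.19). COL27A1, a fibrillar chain, had the highest CPM of the 12 tested chains in both groups. It went from 28.4 ± 0.978 CPM to 19.2 ± 0.788 CPM with treatment (SD, n = 2 each) and fell by 0.56 ± 0.09 on the log2 scale (edgeR adjusted p = 7.71e-04). COL9A2 (-1.13 ± 0.22) and COL18A1 (-0.61 ± 0.17) were lower and COL6A2 (0.77 ± 0.25) higher, all with group means of at most 6.65 CPM. Each of these 3 calls ended on leaving out control replicate 2, with edgeR adjusted p values of 0.0522, 0.0551 and 0.114, and over all settings these ran from 0.00155 to 0.0753, from 0.0132 to 0.909 and from 0.0117 to 0.578. COL18A1 also ended on leaving out FB23-2 replicate 1 (0.062), FB23-2 replicate 2 (0.0649) or control replicate 1 (0.0925), and COL6A2 on leaving out FB23-2 replicate 2 (0.182) or control replicate 1 (0.152).

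Of 17 tested genes of other hydroxylases that use oxygen and 2-oxoglutarate, 9 were lower and 1 higher. Their median log2 fold change was -0.26, against 20.3% lower, 21.8% higher and a median of 0.00 over all tested genes. Among all genes at a mean of 10 CPM or more, 58.8% were called in either direction, but some of these 17 lie below that level. JMJD4, which hydroxylates a translation termination factor (-0.74 ± 0.10), and JMJD6, which hydroxylates lysines (-0.64 ± 0.09), fell. OGFOD2 (-0.74 ± 0.17) and ASPHD1 (-1.78 ± 0.35) were lower too, though both calls ended on leaving out control replicate 2 (edgeR adjusted p of 0.117 and 0.0582, with settings from 0.00257 to 0.481 and from 8.23e-04 to 0.0582). PHYH, the peroxisomal enzyme of phytanic acid breakdown, rose from 12.7 ± 1.92 to 19.4 ± 0.546 CPM (0.63 ± 0.12, edgeR adjusted p = 0.0026). P4HTM, a transmembrane prolyl hydroxylase, and BBOX1, of carnitine synthesis, had at most 2 counts in any library.

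Among tested HIF targets outside glycolysis with a promoter window, 7 of 19 genes with ACGTG in it were higher and 7 lower, and of 7 genes without it 4 were higher and 2 lower. Among glycolysis targets the counts were 3 higher and 8 lower of 13 with ACGTG, and 0 and 4 of 6 without. Over all tested genes with a window, 907 of 3736 with ACGTG were higher and 1007 lower, and 2230 of 7966 without it were higher and 1676 lower.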
